A study of Mus musculus with 16 samples.

Results

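The insulin-like growth factor (IGF) axis was followed in cultured mouse lung fibroblasts through 10 genes: the ligands Igf1 and Igf2, the receptors Igf1r and Igf2r, and the binding proteins Igfbp2 to Igfbp7. Each gene of this listed family was read from array probes whose transcript accession belongs to its symbol. They were 10 of 22911 genes named on the array, and all 10 were among the 15394 genes that passed the filter on dim probes. The members had 13 probes, 12 of which were kept, and every member's probe lay well above background on all 16 arrays.

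IGF1 and IGF2 are secreted peptides that drive growth and survival through the receptor tyrosine kinase IGF1R, while IGF2R removes IGF2 from the cell surface and also sorts lysosomal enzymes. Most IGF outside cells is held by binding proteins, which carry it, keep it from the receptor or deposit it in the matrix, and secreted proteases release it by cutting them. Lung fibroblasts both make and answer IGF1, and IGFBP3 and IGFBP5 are known to be raised in fibrotic human lung.

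Total RNA was hybridised to 1-colour Agilent arrays, and each value below is a log2 signal scaled to the array's 75th percentile. The cells were primary fibroblasts from the lungs of female mice aged 8 weeks. In 4 groups of 4 arrays they were meflin knockout (KO) cells with recombinant TGF-β1, KO cells with vehicle, wild type (WT) C57BL/6J cells with TGF-β1, and WT cells with vehicle. TGF-β1, the cytokine that turns fibroblasts into matrix-making myofibroblasts, was given at 5 ng/ml for 48 h. Meflin is a membrane-anchored protein of mesenchymal cells encoded by Islr, and the labels name neither the deleted part of the gene nor the strain of the KO mice. The labels give 4 independent experiments per group but do not tie arrays to separate mice, so the p-values measure the spread between these arrays.

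Islr averaged 1.76 ± 0.07 in KO cells with TGF-β1, 1.45 ± 0.16 in KO cells with vehicle, 8.34 ± 0.08 in WT cells with TGF-β1 and 10.82 ± 0.06 in WT cells with vehicle (SD, n = 4 each), with every KO array at background. KO cells thus had at least 19.7-fold less Islr signal than WT cells with TGF-β1, and at least 138-fold less with vehicle, where the lowest signal well above background, averaged over the 4 arrays, stands in for the KO level. The 75th percentile of intensity was 382 to 446 on KO TGF-β1 arrays, 470 to 519 on KO vehicle arrays, 429 to 452 on WT TGF-β1 arrays and 486 to 526 on WT vehicle arrays, and no spot was saturated. The arrays came on 2 slides, each with 2 arrays of every group. Within each group, pairs of arrays had r of 0.99587 or more over the genes tested. All 8 fibroblast markers (such as Col1a1, Pdgfra and Thy1) were well above background in every group, as were all 8 macrophage and leukocyte markers. Among 6 epithelial markers, Sftpa1 and Nkx2-1 were at background in every group.

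The promoters of Igfbp5, Igfbp4 and Igfbp3 are shown because the means of these members spanned the widest ranges over the 4 groups: 8.65 log2 units for Igfbp5, 4.42 for Igfbp4 and 1.47 for Igfbp3. Each window runs from 250 bases before to 50 bases after the gene's start, 5′ to 3′ on the gene's own strand, from RefSeq on build GRCm38.p6. They lie at chr1:72874816-72875115 (minus strand) for Igfbp5, chr11:99040994-99041293 (plus strand) for Igfbp4 and chr11:7213874-7214173 (minus strand) for Igfbp3. Capitals mark a TATAAA box.
Igfbp5: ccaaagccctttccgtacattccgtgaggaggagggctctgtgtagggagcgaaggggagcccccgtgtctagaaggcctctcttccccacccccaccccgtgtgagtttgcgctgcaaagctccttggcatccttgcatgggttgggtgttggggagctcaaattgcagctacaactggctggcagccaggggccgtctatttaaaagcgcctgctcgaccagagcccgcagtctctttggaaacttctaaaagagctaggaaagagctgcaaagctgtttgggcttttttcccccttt
Igfbp4: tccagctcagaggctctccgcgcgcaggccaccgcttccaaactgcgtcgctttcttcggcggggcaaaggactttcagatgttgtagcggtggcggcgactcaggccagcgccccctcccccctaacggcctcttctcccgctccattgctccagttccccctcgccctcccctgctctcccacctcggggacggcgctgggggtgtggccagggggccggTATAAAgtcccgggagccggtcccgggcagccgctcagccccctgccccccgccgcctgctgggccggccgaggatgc
Igfbp3: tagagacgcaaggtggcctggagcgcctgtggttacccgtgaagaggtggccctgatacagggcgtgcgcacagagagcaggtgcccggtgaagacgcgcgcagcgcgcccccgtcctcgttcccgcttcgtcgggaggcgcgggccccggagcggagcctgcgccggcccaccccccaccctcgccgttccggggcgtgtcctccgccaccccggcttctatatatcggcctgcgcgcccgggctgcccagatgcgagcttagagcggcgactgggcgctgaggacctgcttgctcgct
The Igfbp4 window held TATAAA, 28 bases before the start, and the other two windows held none of the 3 motifs searched on both strands. These motifs were CAGACA, which SMAD proteins bind and which 21.0% of 32851 promoter windows of this length held, TATAAA (13.6%) and GGGCGG, the GC box (35.7%). Among all 14 promoter windows of the 10 members, 2 held CAGACA, both of Igf2, and 6 held GGGCGG, from Igf2, Igf1r, Igf2r, Igfbp2 and Igfbp7, while 2 held TATAAA, from Igfbp4 and Igfbp6. G and C made up 56.3% of the Igfbp5 window, 71.3% of the Igfbp4 window and 71.7% of the Igfbp3 window, against a median of 52.7% over all windows. A match is a run of letters and not a shown binding site.

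**Figure D1:**
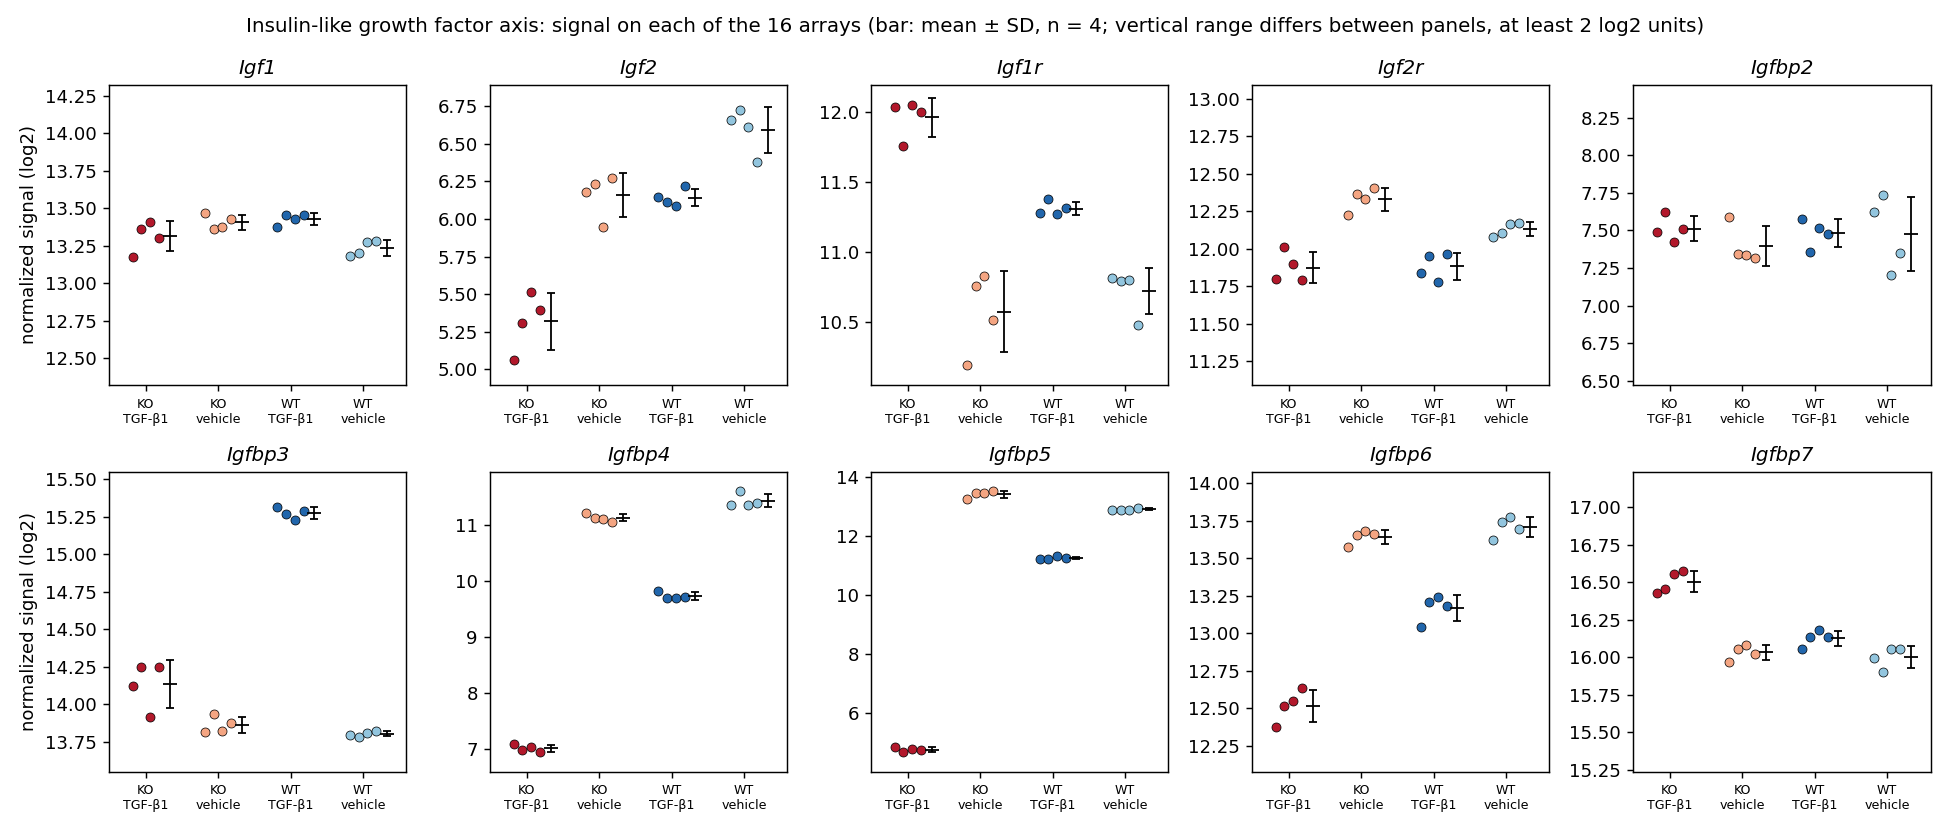
Normalized log2 signal of the 10 members on each of the 16 arrays, with the mean and SD of each group of 4 arrays beside the points; the vertical range differs between panels. The KO TGF-β1 arrays sit lowest for Igfbp5 (4.68 to 4.86), Igfbp4 (6.94 to 7.08), Igfbp6 and Igf2, while the WT TGF-β1 arrays alone sit above 15 for Igfbp3; Igf1r is drawn from its brighter probe, and its dimmer probe ran the other way.

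The question of the design is how the loss of meflin alters what TGF-β1 does to lung fibroblasts, and in the IGF axis the widest differences were in the binding proteins. Igfbp4, Igfbp5 and Igfbp6 fell with TGF-β1 in both genotypes and fell further in KO cells, whereas Igfbp3 rose 2.77-fold in WT cells and had a small difference in KO cells whose sign turned with the scaling. In KO cells 3 members rose, 5 fell and 2 did not pass the test, where 82.6% of all genes tested passed. In WT cells 4 members rose, 5 fell and 1 did not pass, where 68.6% of all genes passed. These counts take Igf1r at its brighter probe, and quantile normalization gave 2 up and 8 down in KO cells and 2 up and 6 down in WT cells. With so many genes of the array past the test, the counts say little about the members, and the sizes are given below. Changes of at least 2-fold that passed were found in 4 members in KO cells (23.1% of all genes) and 3 in WT cells (9.71%). The arrays with and without TGF-β1 did not overlap for 7 members in KO cells (77.2% of all genes) and 9 in WT cells (63%). The median difference of the members was -0.27 in KO cells and -0.12 in WT cells, beside 0.10 and 0.08 over all genes tested. With quantile normalization the median over all genes in KO cells was -0.01.

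Igf1 changed little. This ligand, which fibroblasts and macrophages both release in lung, had 13.18, 13.36, 13.41 and 13.30 on KO TGF-β1 arrays and 13.47, 13.36, 13.37 and 13.43 on KO vehicle arrays. It had 13.37, 13.46, 13.43 and 13.45 on WT TGF-β1 arrays and 13.18, 13.20, 13.28 and 13.28 on WT vehicle arrays. The WT vehicle arrays were lowest as a group and lay apart from WT TGF-β1 and KO vehicle arrays, while KO TGF-β1 arrays overlapped each of the other groups. In WT cells Igf1 rose with TGF-β1 by 0.19 ± 0.05 (± is the standard error of a log2 difference from here on; limma adjusted p = 0.0022), which is 1.14-fold. The KO response was -0.09 ± 0.05 (adjusted p = 0.0812), and the KO response minus the WT response was -0.29 ± 0.07 (limma adjusted p = 0.00202). Quantile normalization gave -0.49 in KO cells (adjusted p = 6.1e-08) and 0.01 in WT cells (adjusted p = 0.885) for Igf1, so which genotype responds turns on the scaling. The difference of the Igf1 responses was -0.50 by quantile normalization, -0.37 within slide 1 and -0.21 within slide 2 (adjusted p = 0.054). Without KO TGF-β1 array 3 the Igf1 response in KO cells passed at -0.13 (adjusted p = 0.0249).

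The genotype differences of Igf1 were as small. KO minus WT was 0.17 ± 0.05 with vehicle (limma adjusted p = 0.0277) and -0.12 ± 0.05 with TGF-β1 (adjusted p = 0.0425). The vehicle call was lost without KO vehicle array 1 or 4 or WT vehicle array 1 or 2, at 0.15 to 0.16. The TGF-β1 call was lost without KO TGF-β1 array 1, at -0.07, or array 4, or WT TGF-β1 array 2, 3 or 4, all at -0.11. Within slide 1 Igf1 gave 0.22 with vehicle and -0.15 with TGF-β1, and within slide 2 it gave 0.12 and -0.08. None of these Igf1 genotype differences passed within a slide. The summed linear signal of the 8 macrophage and leukocyte markers was 41351 to 44750 in KO cells with TGF-β1, 76499 to 80620 in KO cells with vehicle, 55273 to 58405 in WT cells with TGF-β1 and 88292 to 104277 in WT cells with vehicle. Of these 8 markers 7 fell and 1 rose with TGF-β1 in KO cells, and 6 fell and 2 did not pass in WT cells. Over all genes tested, 35.9% fell in KO cells and 27.3% in WT cells. The part of these markers in the Igf1 values was not tested. In cultures measured as a whole, fewer cells of a type and less RNA per cell cannot be told apart.

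Igf2 fell with TGF-β1 in both genotypes and was lower in KO cells. The ligand, a fetal growth factor made from an imprinted gene, had 5.06, 5.31, 5.51 and 5.39 on KO TGF-β1 arrays and 6.18, 6.24, 5.95 and 6.27 on KO vehicle arrays. It had 6.15, 6.11, 6.09 and 6.22 on WT TGF-β1 arrays and 6.66, 6.72, 6.61 and 6.38 on WT vehicle arrays. The order of the groups was WT vehicle, KO vehicle and WT TGF-β1, then KO TGF-β1, and only the middle pair overlapped. Igf2 fell by 0.84 ± 0.10 in KO cells, a 1.79-fold fall (limma adjusted p = 9.05e-07), and fell by 0.45 ± 0.10 in WT cells, a 1.37-fold fall (adjusted p = 0.000706). KO minus WT was -0.82 ± 0.10 with TGF-β1 (adjusted p = 2.03e-06) and -0.43 ± 0.10 with vehicle (limma adjusted p = 0.00789). The response of Igf2 differed between genotypes by -0.39 ± 0.14 (adjusted p = 0.0233), but with normexp background correction it did not, at 0.00 (adjusted p = 0.974), and with quantile normalization it gave -0.27 (adjusted p = 0.132). Within slides 1 and 2 the Igf2 response was -1.02 and -0.66 in KO cells and -0.56 and -0.34 in WT cells, and of these the WT response on slide 2 did not pass (adjusted p = 0.066); nor did KO minus WT with vehicle, at -0.48 and -0.38. With normexp the Igf2 responses were -0.23 in both genotypes, and KO minus WT was -0.25 with either treatment. Igf2 lay low on the scale, where the lowest signals well above background were 3.92 to 4.10 on KO TGF-β1 arrays and 3.55 to 3.78 on WT vehicle arrays. A second Igf2 probe, well above background on 4 of 16 arrays, was not tested. Its group means were 2.86 to 3.49, with TGF-β1 responses of -0.56 in KO cells and 0.25 in WT cells. On it KO minus WT was -0.63 with TGF-β1 and 0.18 with vehicle. Its WT response and vehicle difference thus had the other sign, at signal near background.

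Igf1r gave opposite directions from its probes, so its direction is not settled here. Igf1r encodes the tyrosine kinase through which both ligands signal. The brighter probe had 12.03, 11.75, 12.05 and 12.00 on KO TGF-β1 arrays, 10.19, 10.76, 10.83 and 10.51 on KO vehicle arrays, 11.28, 11.37, 11.27 and 11.31 on WT TGF-β1 arrays and 10.81, 10.79, 10.80 and 10.48 on WT vehicle arrays. The dimmer probe had 8.97, 8.88, 8.97 and 8.99 on KO TGF-β1 arrays, 9.30, 9.35, 9.38 and 9.18 on KO vehicle arrays, 8.94, 8.83, 8.89 and 8.83 on WT TGF-β1 arrays and 9.30, 9.36, 9.11 and 9.07 on WT vehicle arrays. On the brighter probe every TGF-β1 array lay above every vehicle array of its genotype, and on the dimmer probe every TGF-β1 array lay below.

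By the brighter Igf1r probe, signal rose with TGF-β1 by 1.39 ± 0.12 in KO cells (limma adjusted p = 3.23e-08) and by 0.59 ± 0.12 in WT cells (adjusted p = 0.000466). By the dimmer Igf1r probe, signal was lower with TGF-β1 by -0.35 ± 0.06 in KO cells (adjusted p = 0.000109) and by -0.34 ± 0.06 in WT cells (adjusted p = 0.000239). Both probes carry the accession of 1 transcript, and which of them follows the full Igf1r messenger was not tested. KO minus WT with TGF-β1 was 0.65 ± 0.12 for the brighter Igf1r probe (adjusted p = 0.000182) and 0.08 ± 0.06 for the dimmer one (adjusted p = 0.262). With vehicle it was -0.15 ± 0.12 for the brighter probe (adjusted p = 0.458) and 0.10 ± 0.06 for the dimmer one (adjusted p = 0.36). The responses of the genotypes differed by 0.80 ± 0.17 on the brighter Igf1r probe (limma adjusted p = 0.000873) and by -0.01 ± 0.09 on the dimmer one (adjusted p = 0.907).

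**Figure D2:**
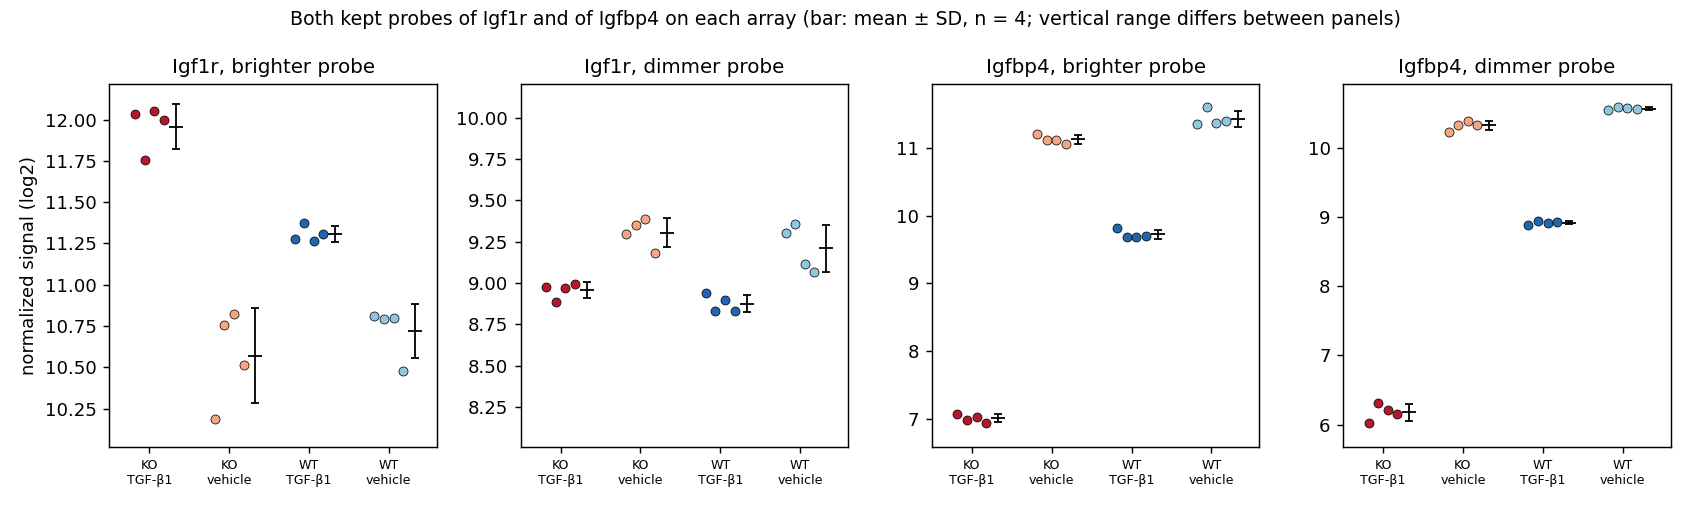
Normalized log2 signal on each array, with group means and SDs (n = 4), for the brighter and the dimmer kept probe of Igf1r and of Igfbp4; the vertical range differs between panels. The Igf1r probes move in opposite directions with TGF-β1 in both genotypes, and the Igfbp4 probes show one order of groups, with KO TGF-β1 arrays at 7.01 ± 0.06 on the brighter probe and 6.18 ± 0.12 on the dimmer one.

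Igf2r, the mannose 6-phosphate receptor that clears IGF2 and also binds latent TGF-β, fell with TGF-β1 in both genotypes. It had 11.80, 12.01, 11.90 and 11.79 on KO TGF-β1 arrays and 12.22, 12.36, 12.33 and 12.40 on KO vehicle arrays. It had 11.84, 11.95, 11.78 and 11.96 on WT TGF-β1 arrays and 12.08, 12.10, 12.17 and 12.18 on WT vehicle arrays. KO vehicle arrays were highest, WT vehicle arrays came next without overlap, and the TGF-β1 arrays of both genotypes overlapped below them. Igf2r fell by 0.45 ± 0.06 in KO cells (limma adjusted p = 2.65e-06) and fell by 0.25 ± 0.06 in WT cells (adjusted p = 0.00137), or 1.37-fold and 1.19-fold. KO minus WT was -0.01 ± 0.06 with TGF-β1, with a 95% interval of -0.13 to 0.11, and 0.20 ± 0.06 with vehicle (limma adjusted p = 0.0327). The vehicle difference of Igf2r was lost without KO vehicle array 2, 3 or 4 or WT vehicle array 1, 2 or 3, at 0.18 to 0.21. The difference of the Igf2r responses was -0.21 ± 0.08 (adjusted p = 0.0393), and it was lost at -0.18 to -0.21 without KO TGF-β1 array 1 or 4, KO vehicle array 2, 3 or 4, WT TGF-β1 array 2 or 4 or WT vehicle array 1 or 2. With normexp, Igf2r gave 0.14 with vehicle (adjusted p = 0.0949) and -0.15 for the difference of responses (adjusted p = 0.11).

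Igfbp5 had the widest range of the 10 members. It encodes a matrix-bound IGF carrier of mesenchymal cells, and on chromosome 1 its gene lies beside that of Igfbp2. It had 4.86, 4.68, 4.79 and 4.74 on KO TGF-β1 arrays and 13.24, 13.45, 13.47 and 13.51 on KO vehicle arrays. It had 11.22, 11.23, 11.31 and 11.27 on WT TGF-β1 arrays and 12.88, 12.88, 12.89 and 12.96 on WT vehicle arrays. The KO groups were thus the highest and the lowest of the 4, and no 2 groups overlapped. With TGF-β1 Igfbp5 fell by 8.65 ± 0.05 log2 units in KO cells (limma adjusted p = 1.93e-20), or 401-fold, and fell by 1.65 ± 0.05 in WT cells (adjusted p = 1.88e-12), or 3.13-fold. The fall of Igfbp5 in KO cells was the third in size among 15394 genes, and its fall in WT cells stood at place 420.

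KO minus WT for Igfbp5 was -6.49 ± 0.05 with TGF-β1 (limma adjusted p = 5.91e-19), an 89.7-fold lower signal in KO cells. With vehicle the sign was the other way, at 0.51 ± 0.05, a 1.43-fold higher signal in KO cells (adjusted p = 2.54e-05). These comparisons share arrays with the TGF-β1 responses, and the difference of the responses, -7.00 ± 0.08 (limma adjusted p = 5.69e-17), uses all 4 groups. With normexp the Igfbp5 values were -6.61 for the KO response, -4.48 for KO minus WT with TGF-β1 and -4.99 for the difference of responses. The KO TGF-β1 level lay within 1 log2 unit of the dimmest signals well above background on those arrays (3.92 to 4.10). Within slides 1 and 2 the KO response of Igfbp5 was -8.57 and -8.72, the difference of responses -6.92 and -7.08, and KO minus WT with vehicle 0.46 (adjusted p = 0.081) and 0.56.

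Igfbp4 followed the same order with TGF-β1. Its product binds IGFs and keeps them from the receptor until the protease PAPP-A cuts it. Igfbp4 had 7.08, 6.99, 7.03 and 6.94 on KO TGF-β1 arrays and 11.21, 11.12, 11.11 and 11.06 on KO vehicle arrays. It had 9.82, 9.69, 9.69 and 9.71 on WT TGF-β1 arrays and 11.35, 11.60, 11.36 and 11.39 on WT vehicle arrays. No groups overlapped, and the KO TGF-β1 arrays were lowest and the WT vehicle arrays highest. With TGF-β1 it fell by 4.12 ± 0.06 in KO cells (limma adjusted p = 2.78e-17), or 17.3-fold, and fell by 1.70 ± 0.06 in WT cells (adjusted p = 1.72e-12), or 3.25-fold. KO minus WT was -2.72 ± 0.06 with TGF-β1 (adjusted p = 1.23e-14), 6.58-fold lower in KO cells, and -0.30 ± 0.06 with vehicle (adjusted p = 0.00246), 1.23-fold lower. The responses of Igfbp4 differed by -2.42 ± 0.08 (limma adjusted p = 5.36e-12). The dimmer Igfbp4 probe gave -4.15 ± 0.05 in KO cells and -1.65 ± 0.05 in WT cells, and -2.50 ± 0.07 for the difference of responses. Within slides 1 and 2 the KO response of Igfbp4 was -4.13 and -4.10, the difference of responses -2.41 and -2.42, and KO minus WT with vehicle -0.31 (adjusted p = 0.19) and -0.29.

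Igfbp6, whose product prefers IGF2 over IGF1, fell in the same pattern with smaller sizes. It had 12.38, 12.51, 12.55 and 12.63 on KO TGF-β1 arrays and 13.57, 13.66, 13.68 and 13.66 on KO vehicle arrays. It had 13.04, 13.21, 13.24 and 13.18 on WT TGF-β1 arrays and 13.62, 13.74, 13.78 and 13.70 on WT vehicle arrays. The vehicle arrays of both genotypes overlapped at the top, the WT TGF-β1 arrays lay apart below them and the KO TGF-β1 arrays lay apart below those. Igfbp6 fell by 1.12 ± 0.06 in KO cells, 2.18-fold (limma adjusted p = 5.79e-11), and fell by 0.54 ± 0.06 in WT cells, 1.46-fold (adjusted p = 7.35e-07). KO minus WT was -0.65 ± 0.06 with TGF-β1 (adjusted p = 8.86e-08) and -0.07 ± 0.06 with vehicle, with a 95% interval of -0.19 to 0.05. The responses of Igfbp6 differed by -0.58 ± 0.08 (limma adjusted p = 2.08e-05).

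Markers of other cells also differed between the groups. The summed signal of 6 endothelial markers was 1059 to 1167 in KO cells with TGF-β1, 2867 to 3069 in KO cells with vehicle, 1557 to 1650 in WT cells with TGF-β1 and 3344 to 3495 in WT cells with vehicle. That of 5 mesothelial markers was 11014 to 12545 in KO cells with TGF-β1, 20574 to 21387 in KO cells with vehicle, 19923 to 20967 in WT cells with TGF-β1 and 23431 to 24686 in WT cells with vehicle. That of 6 epithelial markers was 130 to 157 in KO cells with TGF-β1, 329 to 426 in KO cells with vehicle, 160 to 189 in WT cells with TGF-β1 and 444 to 593 in WT cells with vehicle, and Epcam, Sftpc and Scgb1a1 were also at background in KO cells with TGF-β1. The epithelial marker Cdh1 went against that sum and rose by 0.85 in KO cells and 0.98 in WT cells. With TGF-β1, Cdh1 was the only epithelial marker well above background on all arrays of either genotype. The order of the epithelial sums between the TGF-β1 groups thus rests on Cdh1 and on signal near background. The summed signals of these 3 lists and of the macrophage list were thus lowest in KO cells with TGF-β1, where Igfbp4, Igfbp5 and Igfbp6 were lowest too. Single markers did not all follow these sums. In KO against WT cells with TGF-β1, 4 of 6 endothelial and 1 of 3 tested epithelial markers were lower, and the others did not pass. Of 5 mesothelial markers 4 were lower and Krt19 was higher, by 1.11. Of 8 macrophage and leukocyte markers 5 were lower, Itgam was higher, by 0.26, and 2 did not pass. Over all genes tested, 39.7% were higher and 30.5% lower there. With vehicle the sums of the same lists were lower in KO than in WT cells, as Igfbp4 was, whereas Igfbp5 was higher and Igfbp6 did not pass. Most single markers of these lists did not pass with vehicle. Those lower in KO cells were 1 of 6 endothelial, 3 of 5 mesothelial and 3 of 8 macrophage and leukocyte markers. None of the 3 tested epithelial markers passed, and 6.16% of all genes were lower. All 6 endothelial markers fell with TGF-β1 in either genotype. Of 5 mesothelial markers 4 fell and 1 did not pass in KO cells, and 3 fell and 2 rose in WT cells. Those that rose in WT cells were Wt1, by 0.41, and Lrrn4, by 0.15. Over all genes tested, 46.6% rose and 35.9% fell in KO cells, and 41.3% rose and 27.3% fell in WT cells. The summed signal of 6 pericyte and smooth muscle markers was highest in KO cells with TGF-β1, at 6114 to 6520 in KO cells with TGF-β1, 4137 to 4366 in KO cells with vehicle, 4405 to 4535 in WT cells with TGF-β1 and 3494 to 3805 in WT cells with vehicle. Of these 6, 4 rose and 2 fell with TGF-β1 in KO cells, and 2 rose and 2 fell in WT cells. Those that fell in both genotypes were Notch3, at -1.33 in KO cells and -0.40 in WT cells, and Kcnj8, at -1.78 in KO cells and -0.60 in WT cells. The 8 fibroblast markers summed to 467848 to 505506 in KO cells with TGF-β1, 422888 to 449073 in KO cells with vehicle, 508482 to 530185 in WT cells with TGF-β1 and 402250 to 441535 in WT cells with vehicle. With TGF-β1, 4 fibroblast markers rose and 4 fell in KO cells, and 5 rose and 3 fell in WT cells. Pdgfra, Lum and Dcn were lowest in KO cells with TGF-β1, as Igfbp4 and Igfbp5 were, with responses of -2.21, -2.09 and -1.52 in KO cells and -0.44, -0.76 and -0.71 in WT cells. Col3a1 fell by 0.53 in KO cells and rose by 0.30 in WT cells. The part of these cells in the binding protein values was not tested.

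Igfbp3 was also lower in KO than in WT cells with TGF-β1, but in WT cells it rose with TGF-β1. It encodes the main IGF carrier of blood plasma and lies beside Igfbp1 on chromosome 11. Igfbp3 had 14.12, 14.25, 13.92 and 14.25 on KO TGF-β1 arrays and 13.82, 13.94, 13.83 and 13.87 on KO vehicle arrays. It had 15.32, 15.27, 15.23 and 15.29 on WT TGF-β1 arrays and 13.80, 13.78, 13.81 and 13.82 on WT vehicle arrays. Only the WT TGF-β1 arrays stood clear of all others, since KO TGF-β1 array 3 lay within the KO vehicle arrays and the vehicle arrays of both genotypes overlapped. The rise with TGF-β1 was 1.47 ± 0.06 in WT cells, 2.77-fold (limma adjusted p = 1.96e-11). In KO cells Igfbp3 gave 0.27 ± 0.06 (adjusted p = 0.000722), 1.21-fold, but the sign turned to -0.19 with quantile normalization (adjusted p = 0.0186) and to -0.18 in the authors' value table (adjusted p = 0.0195). KO minus WT was -1.14 ± 0.06 with TGF-β1 (adjusted p = 2.99e-10), 2.20-fold lower in KO cells, and 0.06 ± 0.06 with vehicle, with a 95% interval of -0.07 to 0.19. The responses of Igfbp3 differed by -1.20 ± 0.09 (limma adjusted p = 2.04e-08), and by -1.13 to -1.37 over the alternatives tried. Within slides 1 and 2 the KO response of Igfbp3 was 0.31 and 0.23, the last with an adjusted p of 0.0878.

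Whether Igfbp7 was higher or lower with TGF-β1 turned on the scaling. Its product binds IGFs weakly and is laid down in vessel walls and matrix. Igfbp7 had 16.43, 16.46, 16.55 and 16.57 on KO TGF-β1 arrays and 15.97, 16.05, 16.08 and 16.02 on KO vehicle arrays. It had 16.06, 16.13, 16.18 and 16.14 on WT TGF-β1 arrays and 15.99, 15.90, 16.05 and 16.05 on WT vehicle arrays. The KO TGF-β1 arrays lay above all others, and the other 3 groups lay within 15.90 to 16.18. The difference was 0.47 ± 0.05 in KO cells (limma adjusted p = 1.42e-07) and 0.13 ± 0.05 in WT cells (adjusted p = 0.0245). Quantile normalization turned both Igfbp7 responses, to -0.10 in KO cells (adjusted p = 0.00251) and -0.21 in WT cells (adjusted p = 3.46e-06). The WT response was also lost with normexp, at 0.10 (adjusted p = 0.0634), and without WT TGF-β1 array 3 or 4 or WT vehicle array 2, at 0.11, 0.12 and 0.09. KO minus WT with TGF-β1 was 0.38 ± 0.05 (limma adjusted p = 3.14e-06), 1.30-fold, and it kept its sign at 0.12 by quantile normalization and 0.34 by normexp; with vehicle it was 0.03 ± 0.05 (95% interval -0.07 to 0.13). The responses of Igfbp7 differed by 0.35 ± 0.06 (adjusted p = 0.000341), 0.28 within slide 1 (adjusted p = 0.0525) and 0.41 within slide 2.

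Igfbp2, an IGF carrier that also binds integrins, passed the test in none of the 5 comparisons. It had 7.49, 7.62, 7.42 and 7.51 on KO TGF-β1 arrays and 7.59, 7.34, 7.33 and 7.31 on KO vehicle arrays. It had 7.58, 7.36, 7.52 and 7.48 on WT TGF-β1 arrays and 7.62, 7.74, 7.20 and 7.35 on WT vehicle arrays. All 4 groups overlapped, and the WT vehicle arrays spread most (SD 0.25). The TGF-β1 response of Igfbp2 was 0.12 ± 0.10 in KO cells (95% interval -0.10 to 0.33) and 0.00 ± 0.10 in WT cells (-0.21 to 0.22). It passed in KO cells with quantile normalization, at 0.22 (limma adjusted p = 0.0484), and with normexp, at 0.16 (adjusted p = 0.0345). Within slides 1 and 2 the WT response of Igfbp2 was -0.21 (adjusted p = 0.164) and 0.22 (limma adjusted p = 0.0242), opposite in sign, with WT vehicle arrays 1 and 2 above arrays 3 and 4.

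**Figure D3:**
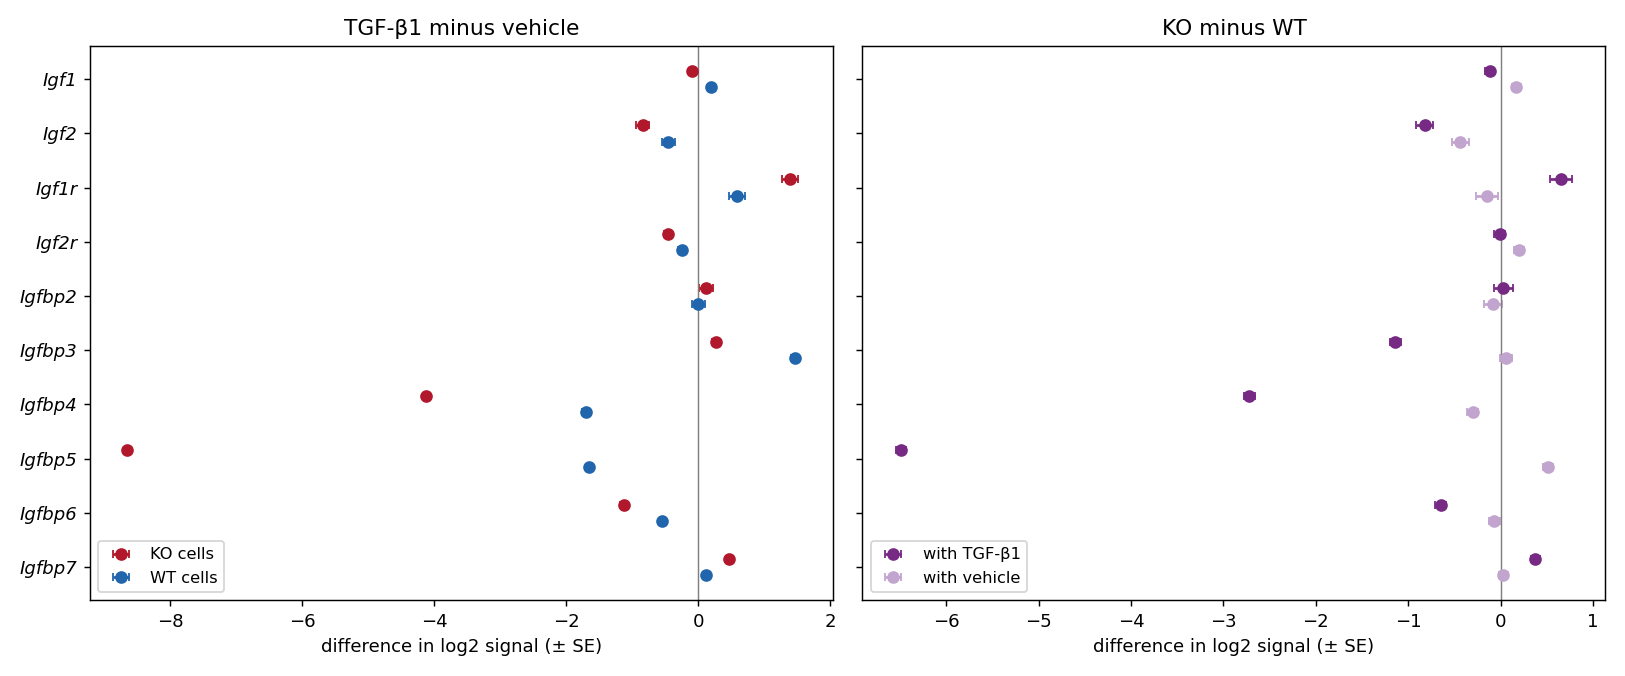
Differences in log2 signal with their standard errors for the 10 members: TGF-β1 minus vehicle in KO and WT cells on the left, and KO minus WT with TGF-β1 and with vehicle on the right. Igfbp5 (-8.65) and Igfbp4 (-4.12) lie farthest left in KO cells and Igfbp3 (1.47) farthest right in WT cells; quantile normalization turned the sign of both Igfbp7 responses and of the KO response of Igfbp3, and the dimmer probe turned that of both Igf1r responses.

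Between genotypes, the members differed far more with TGF-β1 than with vehicle. With TGF-β1, 2 members were higher and 6 lower in KO cells and 2 did not pass, where 70.2% of all genes tested passed, 39.7% higher and 30.5% lower. With vehicle, 3 were higher, 2 lower and 5 did not pass, where 13.2% of all genes passed, 7.06% higher and 6.16% lower. No member differed at least 2-fold with vehicle (0.312% of all genes did), and 3 did with TGF-β1 (10.3%), namely Igfbp3, Igfbp4 and Igfbp5, all lower in KO cells. The vehicle count of 5 dropped to 3 without KO vehicle array 4, WT vehicle array 1 or WT vehicle array 2, and to 0 within slide 1 and 2 within slide 2. The members' median was -0.38 with TGF-β1 and -0.02 with vehicle, beside 0.06 and 0.03 over all genes tested. The arrays of the genotypes did not overlap for 7 members with TGF-β1 (64.7% of all genes) and 5 with vehicle (18.8%). The response to TGF-β1 itself differed between genotypes for 9 members, 2 more positive and 7 more negative in KO cells, where 58.3% of all genes passed, 31.9% more positive and 26.5% more negative. All these counts take Igf1r at its brighter probe. Its dimmer probe passed neither between genotypes with TGF-β1 nor for the difference of responses. The lower Igf1 in KO cells with TGF-β1 was lost under 8 of 17 alternatives. Igfbp3, Igfbp4 and Igfbp5 had differences of response of at least 2-fold, as did 9.96% of all genes. Igfbp5 had the second most negative such difference of 15394 genes.

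For the members with the widest ranges, the genes with the most similar signal over the 16 arrays were found by Pearson's r, given as a description without a test because the arrays fall into 4 groups. For Igfbp5 these were Sema5a (r = 0.9993), Klf15 (0.9984) and Ism1 (0.998). For Igfbp4 they were Dpp4, Mcoln2 and Lbp, each at 0.9982. For Igfbp3 they were Fpr1 (0.9946), Chchd10 (0.9836) and Cemip (0.9737). Genes whose symbol starts with Gm or LOC, ends in Rik or is an accession were passed over in this search.

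The rest of the pathway was followed through 30 listed genes. Of these, 26 were tested, and Igfbp1, Igfbpl1, Igfals and Insrr were not well above background in any whole group. The differences of the 26 come from the main scaling alone and were not recomputed under the alternatives. Among the members, quantile normalization turned the sign of a response as large as 0.47 (Igfbp7 in KO cells). In KO cells 8 of 26 rose with TGF-β1 and 12 fell (46.6% and 35.9% of all genes), and in WT cells 11 rose and 6 fell (41.3% and 27.3%). The secreted proteases that cut IGF binding proteins, with their inhibitors, rose in 4 of 6 genes in either genotype. These were the proteases Adam12, Htra1 and Pappa and the inhibitor Stc2. Adam12, a metalloprotease that cuts IGFBP3 and IGFBP5, rose by 3.11 ± 0.08 in KO cells (limma adjusted p = 1.97e-14) and 2.11 ± 0.08 in WT cells (adjusted p = 7.66e-12). Htra1, a secreted serine protease, rose by 1.62 ± 0.05 in KO cells (adjusted p = 5.13e-13) and 0.75 ± 0.05 in WT cells (adjusted p = 1.28e-08). Pappa, whose product cuts IGFBP4, rose by 0.90 ± 0.05 in KO cells (adjusted p = 6.07e-11) and 0.55 ± 0.05 in WT cells (adjusted p = 5.52e-08). The rises of Adam12, Htra1 and Pappa were larger in KO cells, by 1.00 ± 0.11, 0.86 ± 0.08 and 0.35 ± 0.06 (limma adjusted p = 2.68e-06, 2.44e-07 and 0.000303).

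Pappa2, a relative of Pappa that cuts IGFBP3 and IGFBP5, fell by 1.32 ± 0.11 in KO cells (adjusted p = 1.36e-08) and gave -0.01 ± 0.11 in WT cells (adjusted p = 0.927). Its responses differed by -1.31 ± 0.15 (limma adjusted p = 2.97e-06). The stanniocalcins, which block PAPP-A, went opposite ways: Stc2 rose by 1.18 ± 0.06 in KO cells and 0.98 ± 0.06 in WT cells, and Stc1 fell by 0.45 ± 0.08 in KO cells and by 0.78 ± 0.08 in WT cells. Stc2 was also higher in KO than in WT cells with vehicle, by 0.38 ± 0.06 (limma adjusted p = 0.000696), and the other gene of the 26 that was higher there was Grb10.

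Among 14 signal transducers, 2 rose and 6 fell in KO cells and 4 rose and 3 fell in WT cells, where 46.6% and 35.9% of all genes rose and fell in KO cells and 41.3% and 27.3% in WT cells. Grb10, an adaptor that restrains insulin and IGF receptors, gave -0.18 ± 0.12 in KO cells (adjusted p = 0.195) and rose by 0.71 ± 0.12 in WT cells (limma adjusted p = 0.000112), and these responses differed by -0.88 ± 0.17 (adjusted p = 0.000478). Foxo1, a transcription factor held in check by AKT, fell by 1.19 ± 0.06 in KO cells (adjusted p = 3.23e-11) and 0.37 ± 0.06 in WT cells (adjusted p = 3.74e-05). Akt1 rose by 0.69 ± 0.05 in KO cells and 0.27 ± 0.05 in WT cells. Irs1, the docking protein of the receptor, fell by 0.51 ± 0.06 in KO cells and by 0.44 ± 0.06 in WT cells. The growth hormone receptor gene Ghr fell by 0.60 ± 0.05 in KO cells and by 0.70 ± 0.05 in WT cells.

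The RNA partners of Igf2 did not move as one. H19, the imprinted noncoding RNA next to Igf2 on chromosome 7, fell by 0.56 ± 0.08 in KO cells and by 0.95 ± 0.08 in WT cells, so its responses differed by 0.39 ± 0.11 (limma adjusted p = 0.00726) where those of Igf2 differed by -0.39 ± 0.14. That difference of Igf2 did not pass with normexp (0.00) or with quantile normalization (-0.27). Of the genes for proteins that bind Igf2 messenger RNA, Igf2bp1 rose by 1.13 ± 0.11 in KO cells and 0.39 ± 0.11 in WT cells, and Igf2bp3 by 0.95 ± 0.06 in KO cells and 0.64 ± 0.06 in WT cells. Igf2bp2 fell by 0.24 ± 0.05 in KO cells and rose by 0.14 ± 0.05 in WT cells (adjusted p = 0.000674 and 0.0306), where its TGF-β1 and vehicle arrays overlapped.

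**Figure D4:**
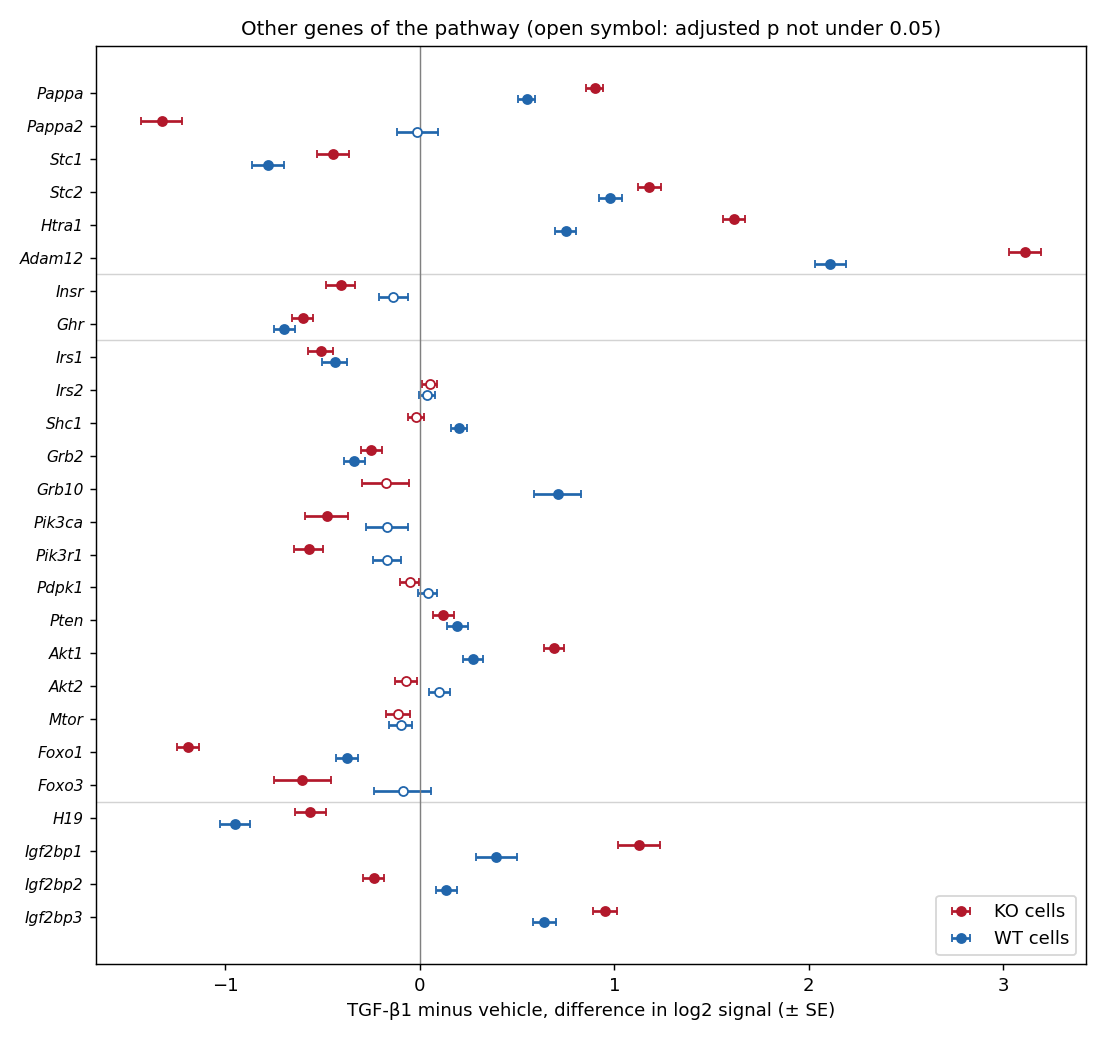
TGF-β1 minus vehicle in log2 signal, with standard errors, for 26 other genes of the pathway in KO and WT cells; lines separate the proteases with their inhibitors, the related receptors, the signal transducers and the RNA partners of Igf2. Adam12 lies farthest right (3.11 in KO cells, 2.11 in WT cells) and Pappa2 farthest left in KO cells (-1.32). Grb10, Igf2bp2, Shc1, Akt2 and Pdpk1 lie on opposite sides of 0 in the genotypes, and of these only Igf2bp2 passed in both.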

How the data were processed

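RNA of 16 cultures was measured on Agilent arrays. Per the file headers, the deposited intensities are spot signals written by Agilent Feature Extraction 11.0.1.1 after its spatial detrending and background subtraction. The authors also deposited a value file in log2 units for 9933 probes (9922 matched, r of at least 0.999 to log2 intensity), so its scale is log2, higher means brighter and probes are not centred; how it was normalized and its probes chosen is not given in the sources used here. It holds 5 of the 10 members. Its column medians were 6.391, 6.38, 6.388 and 6.381 for KO TGF-β1, 6.586, 6.593, 6.567 and 6.58 for KO vehicle, 6.473, 6.466, 6.493 and 6.469 for WT TGF-β1 and 6.595, 6.598, 6.615 and 6.609 for WT vehicle.

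The log2 intensities were averaged over spots of a probe and shifted to equal 75th percentiles. Of 56605 probes, 27 with outlier marks were left out and 33888 were kept because every array of some group showed them well above background. Accessions without their version were matched to RefSeq (GRCm38.p6), which named 32994 probes; the array design was drawn on another build, so RefSeq gave only names, gene order and promoters. The brightest kept probe stood for each of 15394 genes. Levels were not compared between genes.

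The test was that of limma 3.58.1 (R 4.3.3, with the package data.table in version 1.17.8), 1 coefficient per group over all 16 arrays, 2-sided, with Benjamini-Hochberg adjustment over 15394 genes per comparison (5 in all), and the threshold was an adjusted p of 0.05. The fit was tested on simulated data. Figures used Python 3.11.15, pandas 2.3.3 and matplotlib 3.10.9. Alternatives were quantile normalization, normexp (offset 50), other filters, mean over probes, the authors' table, slide as block and single slides, a replicate block and leaving out each array; the dimmer probes of Igf1r and Igfbp4 were added after seeing the data. The number of arrays limits the precision. The members and lists were chosen with earlier results of these data known. All members, Islr, the 3 most similar genes of the 3 members with the widest range, and any gene of the pathway and marker lists could be named; 1 gene first listed in the pathway is not reported here.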

Additional observations from a re-analysis of the deposited data

Results flagged for a closer look

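Single arrays stood apart from the other 3 of their group (Dixon's gap test at the 95% level) in 4 of 40 groups tested, where chance gives about 1 in 20. These were the brighter Igf1r probe on WT vehicle array 4, at 10.48 with the next array at 10.79, and Igfbp2 on KO vehicle array 1, at 7.59 with the next at 7.34. Igfbp4 gave the others, at 9.82 on WT TGF-β1 array 1 (next 9.71) and 11.60 on WT vehicle array 2 (next 11.39).

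The TGF-β1 response differed between genotypes by limma's test of the difference for 9 of 10 members, as it did for 58.3% of all genes tested. The KO response minus the WT response was -7.00 for Igfbp5, -2.42 for Igfbp4, -1.20 for Igfbp3, -0.58 for Igfbp6, -0.39 for Igf2, -0.29 for Igf1 and -0.21 for Igf2r, and it was 0.35 for Igfbp7. For Igf1r it was 0.80 on the brighter probe, and the dimmer probe did not show it (-0.01). With normexp 7 members passed, and Igf2 (0.00, limma adjusted p = 0.974) and Igf2r (-0.15, adjusted p = 0.11) no longer did. For Igfbp5, Igfbp4 and Igfbp6 the larger fall with TGF-β1 was in KO cells, and for Igfbp3 the larger rise was in WT cells.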

How the results depend on the processing

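Of 965 member differences recomputed under an alternative, 891 kept their side of the threshold and 59 were no longer past it. Another 7 newly passed, and 8 that had passed in the main fit turned in sign. The 891 kept direction where the main difference had passed, but those that had not passed could change sign. Igf1r did so for KO minus WT with vehicle, at -0.15 on the brighter probe and 0.10 on the dimmer one. Igfbp4, Igfbp5 and Igfbp6 kept both TGF-β1 responses and the difference of responses under every alternative run, and Igfbp3 its WT response and difference of responses. Those that turned were, by quantile normalization, Igfbp7 in KO (-0.10) and WT cells (-0.21) and Igfbp3 in KO cells (-0.19); in the authors' table, Igfbp3 in KO cells (-0.18); with normexp, the Igf2 difference of responses (0.0034); and by the dimmer probe, the Igf1r responses in KO (-0.35) and WT cells (-0.34) and their difference (-0.014). The mean over both Igf1r probes gave 0.13 in WT cells (adjusted p = 0.182). The cause was not tested.

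The authors' table, which holds only Igf1r and Igfbp3 to Igfbp6, called 5 of 5 in every comparison except KO against WT with vehicle (2). Most of its 4186 genes passed there too. It called 4017 and 3700 for TGF-β1 in KO and WT cells, 3617 between genotypes with TGF-β1 and 3351 for the difference of responses. In KO against WT with vehicle the main count of 5 members went to 3 with no filter on dim probes, 0 within slide 1 (4 at an unadjusted p under 0.05 by limma) and 2 within slide 2. Leaving out 1 array gave 3 to 5 there, 7 to 8 for KO against WT with TGF-β1, 8 to 9 for each TGF-β1 response and 8 to 9 for the difference of responses. Over all genes, KO against WT with vehicle called 2036, but 197 within slide 1, 1048 within slide 2 and 1150 of 4186 in the authors' table, and the difference of responses called 8978, but 5620 within slide 1. Quantile normalization took the share of positive calls for that difference to 43.6%, against 54.6%.

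Replicate numbers were not taken to pair the arrays, since not every same-numbered pair correlated in its deviations (-0.034 to 0.218, median 0.077, against a median of -0.034 for other pairs). As a hint from the data, 12 of 16 arrays correlated best with their own number, but same-numbered arrays also shared a slide. Pairs on the same slide had a median of 0.062, against -0.057 for pairs on different slides. The slide's part in the hint was not tested. A replicate block left the counts of members at 8 and 9 for TGF-β1 in KO and WT cells, 8 and 5 between genotypes with TGF-β1 and vehicle, and 9 for the difference, and called 12847, 10788, 11065, 2292 and 9312 genes.

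Signal near background limits Igfbp5 in KO cells with TGF-β1, Igf2 and Islr in KO cells, for which fold sizes depend on the background correction.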
